A study of Mus musculus with 10 samples.

Results

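Cholesterol and fatty acid synthesis was described here through 37 mouse genes, 19 enzymes of sterol synthesis, 12 enzymes of fatty acid synthesis and modification and 6 regulators and carriers, in cultured mammary epithelial cells. The members were the rows of the deposited count table whose Entrez identifiers map to 37 fixed gene symbols, out of 24454 genes, and they do not cover every step of the pathways. RNA was sequenced from NMuMG/E9 cells, a single subclone (subclone 9) of the NMuMG line from normal mouse mammary gland. All 10 libraries came from cells transfected with siRNA at 20 nM and harvested on day 3. The siIrf1 TGFbeta group (3 libraries) had siRNA against the transcription factor Irf1 and, starting 1 day after transfection, recombinant human TGFbeta1 at 2 ng/ml for 2 days. The siCtr TGFbeta group (2 libraries, replicates 2 and 3) had control siRNA with the same TGFbeta1. Cells of the siIrf1 0 d group (3 libraries) and the siCtr 0 d group (2 libraries, replicates 1 and 3) had those siRNAs and no TGFbeta1. TGFbeta was used to induce the epithelial to mesenchymal transition, and Irf1 knockdown asked what that factor contributes to it. The knockdown was transient and partial, and the labels do not say that the libraries of a group came from separate cultures, so that the p-values reflect only how these libraries spread, which may be technical.

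Cells build cholesterol from acetyl-CoA through mevalonate, farnesyl diphosphate, squalene and lanosterol, and fatty acids from the same acetyl-CoA through malonyl-CoA. Most enzymes of both routes are transcribed under SREBP factors, encoded by Srebf2, mainly tied to sterol genes, and Srebf1, mainly tied to fatty acid genes. SREBP precursors are carried from the endoplasmic reticulum to the Golgi by Scap when membrane sterol is low, and Insig proteins hold the complex back when sterol is high. Mammary epithelium is known for large fatty acid output in lactation, and for Srebf1, Fasn and Scd genes as parts of it.

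The libraries held 27547649 to 67301646 counts, and all 37 genes passed the filter on low counts among 13135 genes tested. Irf1 itself was at 36.5 to 64.1 CPM (counts scaled to library size) in the 6 siIrf1 libraries, against 106 to 148 CPM in the 4 siCtr libraries. Keratin and cadherin markers of mammary epithelium were abundant (summed marker levels of 6662 to 13745 CPM), although Cldn7 had no count in any library and Cldn3 stayed under 1 CPM. Cldn4 was at 0.079 to 0.81 CPM in the libraries at 0 d and at 26.3 to 68.0 CPM in the TGFbeta libraries. Of 7 adipocyte markers, 5 stayed under 1 CPM in every library, Plin1 at 0, and their sum was 0.80 to 7.83 CPM. The 6 fibroblast markers, with Col1a2 and Lum at 0, summed to 27.1 to 31.4 CPM in siIrf1 TGFbeta libraries, 34.4 to 38.9 CPM in siCtr TGFbeta libraries, 0.837 to 0.950 CPM in siIrf1 0 d libraries and 0.424 to 0.589 CPM in siCtr 0 d libraries. Immune markers summed to 1.91 to 7.09 CPM, with Cd3e at 0, and basal markers to 11.1 to 24.1 CPM. Libraries also differed in the level of genes of low GC content relative to genes of high GC content. This log2 GC index was 0.66, -0.39 and 0.77 in siIrf1 TGFbeta libraries, -0.46 and -0.46 in siCtr TGFbeta libraries, 0.74, 0.19 and 0.93 in siIrf1 0 d libraries and -1.37 and -0.61 in siCtr 0 d libraries. Replicate 1 of siCtr 0 d and replicate 2 of siIrf1 TGFbeta stood apart from their groups on it, and every siIrf1 library lay above every siCtr library.

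Promoters are shown because 11 of the 19 sterol genes fell with TGFbeta in siCtr cells. RefSeq promoter windows (GRCm38.p6) were at hand for 30 of the 37 genes. The 250 bases before each start were searched on both strands for CACNCCAC, the core of the sterol response element that SREBP factors bind, and for CCAAT, the box bound by NF-Y, a known partner of SREBP. No match of one motif overlapped a match of the other in these genes. The sequences run 5′ to 3′ on the gene's strand, with matches to either motif in capitals (GTGGCGTG and ATTGG are matches on the other strand). They show only the last 241 (Acat2), 196 (Hmgcs1) or 120 (Insig1, Lss and Cyp51) of the 250 bases searched. CCAAT matches of Hmgcs1 at -237 and of Insig1 at -216 from the start lie outside the stretches shown. Acat2 and Hmgcs1 were the only sterol genes with a CACNCCAC match among the 16 with a window. Fdps, Fdft1 and Sqle had no window and were not searched. Insig1, Lss and Cyp51 were added after their values were seen, as genes with large TGFbeta effects.
Acat2 (chr17:12960726-12960966, minus strand): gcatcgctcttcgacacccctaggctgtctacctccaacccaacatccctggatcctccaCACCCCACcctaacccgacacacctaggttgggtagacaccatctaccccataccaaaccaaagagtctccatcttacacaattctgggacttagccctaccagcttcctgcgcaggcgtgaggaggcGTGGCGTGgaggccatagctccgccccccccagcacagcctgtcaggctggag
Hmgcs1 (chr13:119690155-119690350, plus strand): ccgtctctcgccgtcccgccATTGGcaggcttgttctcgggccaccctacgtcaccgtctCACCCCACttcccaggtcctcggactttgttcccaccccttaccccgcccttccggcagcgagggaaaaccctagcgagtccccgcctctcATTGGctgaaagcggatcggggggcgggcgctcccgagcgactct
Insig1 (chr5:28071292-28071411, plus strand): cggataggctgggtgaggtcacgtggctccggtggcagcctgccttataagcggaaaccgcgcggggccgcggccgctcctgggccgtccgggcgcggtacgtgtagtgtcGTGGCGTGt
Lss (chr10:76531485-76531604, plus strand): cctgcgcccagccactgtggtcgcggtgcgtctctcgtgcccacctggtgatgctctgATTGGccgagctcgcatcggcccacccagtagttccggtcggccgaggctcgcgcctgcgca
Cyp51 (chr5:4104698-4104817, minus strand): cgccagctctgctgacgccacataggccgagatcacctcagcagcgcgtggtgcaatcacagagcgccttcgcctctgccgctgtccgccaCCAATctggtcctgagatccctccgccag

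CACNCCAC was found in 2 of 16 sterol genes with a window (12.5%), in 1 of 5 regulators and in 0 of 9 fatty acid genes, beside 6.05% of 27025 genes with a window. CCAAT was found in 15 of 16 sterol genes (93.8%), 4 of 5 regulators and 5 of 9 fatty acid genes (55.6%), beside 37.5% of all genes. These letter matches describe the windows and show no binding.

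With TGFbeta, some genes of both routes fell, and none rose. Acly, Acaca and Fasn, of the steps from citrate through malonyl-CoA to fatty acids, did not pass the test in siIrf1 or siCtr cells. In control siRNA cells, 19 of the 37 genes fell with TGFbeta at an adjusted p below 0.05 (edgeR quasi-likelihood test, Benjamini-Hochberg over all genes tested), where 16.3% of all genes tested fell and 16.1% rose (32.5% in either direction). They were 11 of 19 sterol genes, 6 of 12 fatty acid genes and 2 of 6 regulators. The median log2 fold change of TGFbeta over 0 d was -0.87 for the sterol genes, -0.67 for the fatty acid genes and 0.02 for all genes tested. No member rose, with 2 at an unadjusted p below 0.05, and DESeq2 called 1 (Hsd17b7). In bulk RNA, fewer cells that express a gene and less RNA per cell cannot be told apart. Among the alternative settings, leaving out a siCtr library leaves 1 library in its group. Leaving out both libraries that stood apart leaves 1 siCtr 0 d library. Values and calls under these settings, here and below, rest on that 1 library of the group. Of the 19 calls, those on Acat2, Pmvk, Fdps, Sqle, Lss, Cyp51, Insig1, Acss2 and Me1 (9 genes) were made under all 19 alternative settings. Dhcr7 (-0.64), Ebp (-0.58), Fdft1 (-1.01), Nsdhl (-0.60), Scd2 (-0.54), Srebf2 (-0.86), Fads2 (-0.66), Elovl5 (-0.73), Fads1 (-0.47) and Lbr (-1.32) were no longer called without siCtr TGFbeta replicate 2. The calls on Dhcr7 (-0.76), Ebp (-0.78), Srebf2 (-0.80), Fads1 (-0.67) and Lbr (-0.95) did not hold without siCtr TGFbeta replicate 3. Dhcr7 (-0.60), Ebp (-0.50), Nsdhl (-0.62), Scd2 (-0.58), Srebf2 (-0.89), Elovl5 (-0.71) and Fads1 (-0.49) fell short of the threshold without siCtr 0 d replicate 1. Leaving out siCtr 0 d replicate 3 ended the calls on Srebf2 (-0.77) and Lbr (-0.43). Mvk (-0.94), Mvd (-0.86), Hsd17b7 (0.45), Srebf1 (-0.75) and Scd1 (-0.68) were called without siIrf1 TGFbeta replicate 2. Mvk (-0.94), Mvd (-0.86), Srebf1 (-0.75) and Scd1 (-0.68) were called without siIrf1 TGFbeta replicate 3. Hmgcs1 was at -1.32 without siCtr 0 d replicate 1, and Acsl3 was at 2.30 without siCtr 0 d replicate 3. With RLE size factors, Hsd17b7 (0.49) was called. Hsd17b7 (0.55) was called with the stricter filter. With DESeq2, Mvd (-0.82) and Hsd17b7 (0.50) were called. Lbr (-1.19), Scd2 (-0.78) and Fads1 (-0.66) were no longer called, and Mvk (-0.94), Mvd (-0.86) and Srebf1 (-0.75) were called, with only the groups compared in the fit. With a block on replicate number, Mvk (-1.21), Mvd (-1.13), Srebf1 (-0.94) and Scd1 (-0.87) were called. Nsdhl (-0.62), Scd2 (-0.58) and Fads1 (-0.49) were no longer called, and Hmgcs1 (-1.32), Mvk (-0.90), Mvd (-0.90), Msmo1 (-0.82), Stard4 (-0.81), Elovl6 (-0.89) and Scd1 (-0.83) were called, with both libraries that stood apart left out. Ebp (-0.27) was no longer called, and Msmo1 (-0.51) and Scd1 (-1.10) were called, with the block and the removal of the trend of each library with GC content and length together. Hmgcs1 was at 0.00 without siCtr 0 d replicate 3. Without siCtr TGFbeta replicate 2 the count of sterol genes was 6, and the fatty acid count was 2 there and 3 without siCtr 0 d replicate 1.

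In siIrf1 cells, 15 of the 37 genes fell with TGFbeta, where 9.71% of all genes tested fell and 11.6% rose (21.3% in either direction). They were 8 of 19 sterol genes, 6 of 12 fatty acid genes and Insig1 among the regulators, with medians of -0.50 for sterol genes and -0.46 for fatty acid genes, beside 0.02 for all genes tested. No member rose under edgeR or DESeq2, and none was higher at an unadjusted p below 0.05. This comparison shares no library with that in siCtr cells, but both come from 1 fit with a shared estimate of spread. The 2 sets of calls are therefore not independent. In a fit blocked on replicate number, the sterol count was 5. The calls on Cyp51, Elovl6, Me1, Insig1, Fads2 and Acss2 (6 genes) were made under all 19 alternatives. Fdps (-0.40), Acat2 (-0.39), Fdft1 (-0.57), Lss (-0.54), Sqle (-0.67), Pmvk (-0.66), Elovl5 (-0.47), Fads1 (-0.38) and Lbr (-0.86) were no longer called without siIrf1 TGFbeta replicate 1. The calls on Elovl5 (-0.49), Fads1 (-0.46) and Lbr (-0.69) did not hold without siIrf1 TGFbeta replicate 2. Acat2 (-0.49), Fdft1 (-0.73), Pmvk (-0.67) and Lbr (-0.86) fell short of the threshold without siIrf1 TGFbeta replicate 3. Leaving out siCtr TGFbeta replicate 2 or siCtr TGFbeta replicate 3 ended the calls on Fdps (-0.52), Acat2 (-0.49), Elovl5 (-0.53), Fads1 (-0.47) and Lbr (-0.80). Fdps (-0.57), Acat2 (-0.52), Fdft1 (-0.76), Sqle (-0.75), Elovl5 (-0.46), Fads1 (-0.49) and Lbr (-0.77) were no longer called without siIrf1 0 d replicate 1. The calls on Fdps (-0.46), Acat2 (-0.48), Fdft1 (-0.73), Pmvk (-0.66), Fads1 (-0.46) and Lbr (-0.84) did not hold without siIrf1 0 d replicate 2. Fdps (-0.55), Acat2 (-0.49), Fdft1 (-0.70), Lss (-0.64), Sqle (-0.74), Pmvk (-0.75), Elovl5 (-0.52), Fads1 (-0.46) and Lbr (-0.79) fell short of the threshold without siIrf1 0 d replicate 3. Leaving out siCtr 0 d replicate 1 or siCtr 0 d replicate 3 ended the call on Acat2 (-0.49). Mvd (-0.56) and Dhcr7 (-0.57) were called without siIrf1 TGFbeta replicate 2. Scd2 (-0.60) was called without siIrf1 TGFbeta replicate 3. With RLE size factors, Acat2 (-0.47) and Lbr (-0.78) were no longer called. Acat2 (-0.48), Fdps (-0.51) and Fads1 (-0.46) were no longer called with no filter on low counts. With the stricter filter, Acat2 (-0.48), Fdps (-0.51) and Lbr (-0.80) were no longer called. Dhcr7 (-0.44) was called with DESeq2. With only the groups compared in the fit, Acat2 (-0.49), Fdps (-0.52), Elovl5 (-0.53) and Fads1 (-0.47) were no longer called. Acat2 (-0.50), Fdps (-0.53) and Lbr (-0.80) were no longer called with a block on replicate number. With both libraries that stood apart left out, Mvd (-0.58), Dhcr7 (-0.58), Scd1 (-0.55) and Acsl3 (1.09) were called. The count of sterol genes was 1 without siIrf1 TGFbeta replicate 1, 4 without its replicate 3, 5 without siCtr TGFbeta replicate 2 or 3, and 3, 3 and 1 without siIrf1 0 d replicates 1, 2 and 3.

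**Figure D1:**
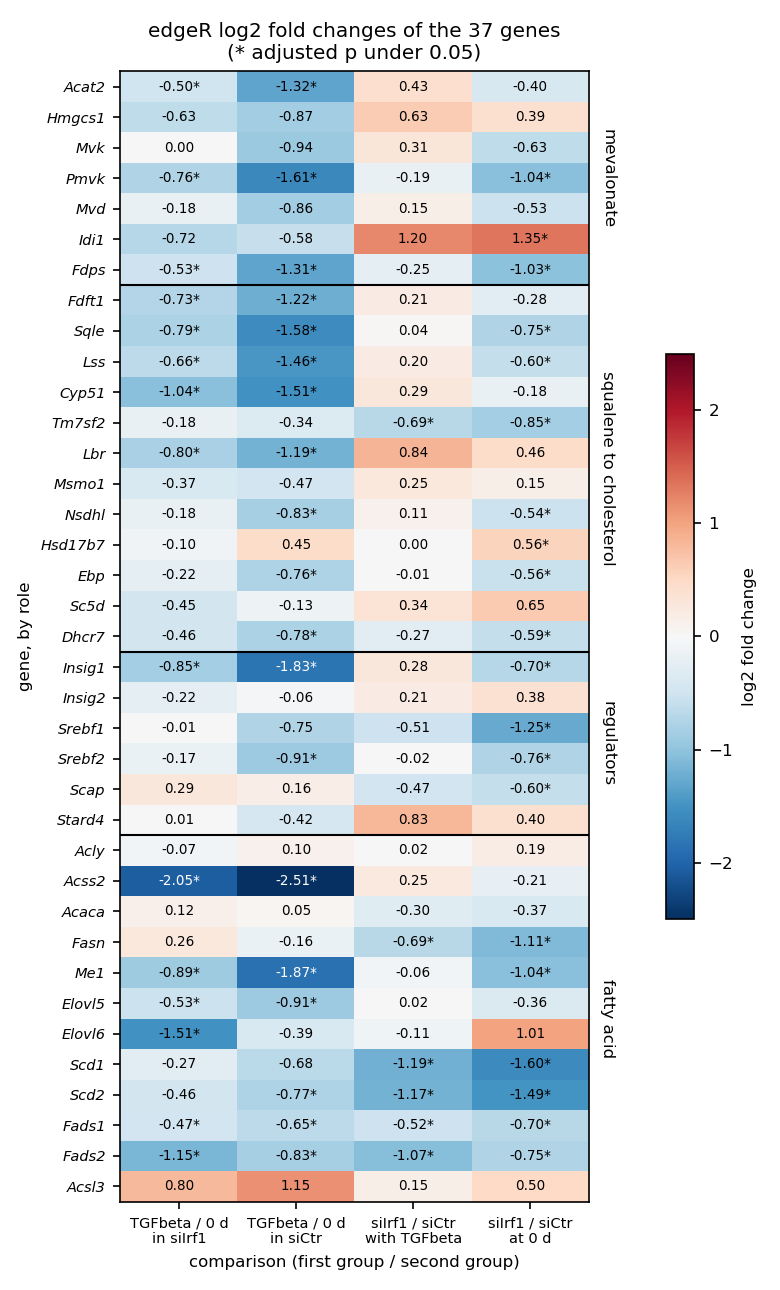
Log2 fold changes of the 37 genes in the 4 pairwise comparisons (columns, first group over second), ordered by role (rows); blue is lower and red higher in the first group, and an asterisk marks an adjusted p below 0.05 (edgeR). The TGFbeta columns hold 15 marked falls in siIrf1 cells, 19 in siCtr cells and no marked rise, and the siIrf1 columns hold 6 marked falls with TGFbeta and 18 at 0 d.

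The 7 mevalonate enzymes act between acetyl-CoA and farnesyl diphosphate and do not cover every step of that route. With TGFbeta, Pmvk, Fdps and Acat2 fell in siIrf1 cells and in siCtr cells. Pmvk, which phosphorylates mevalonate phosphate, had 16.7, 25.01 and 17.2 CPM in siIrf1 TGFbeta libraries, 22.3 and 22.7 CPM in siCtr TGFbeta libraries, 28.4, 37.9 and 33.6 CPM in siIrf1 0 d libraries and 67.8 and 69.6 CPM in siCtr 0 d libraries. Both siCtr 0 d libraries lay above all others. Its log2 fold change with TGFbeta was -0.76 ± 0.19 (SE, adjusted p = 0.0161) in siIrf1 cells and -1.61 ± 0.24 (SE, adjusted p = 0.000559) in siCtr cells, 3.05-fold lower. Fdps, the farnesyl diphosphate synthase, had 113, 149.8 and 155 CPM in siIrf1 TGFbeta libraries, 153 and 177 CPM in siCtr TGFbeta libraries, 189.6, 218 and 195 CPM in siIrf1 0 d libraries and 461 and 361 CPM in siCtr 0 d libraries. The TGFbeta and 0 d libraries did not overlap in either siRNA background. Fdps changed by -0.53 ± 0.16 (SE, adjusted p = 0.0420) in siIrf1 cells and by -1.31 ± 0.20 (SE, adjusted p = 0.000706) in siCtr cells. With the trend of each library with GC content and gene length removed (written below as the trend removed), Fdps was at -0.33 and not called in siIrf1 cells and at -0.82 and called in siCtr cells. Acat2, the cytosolic thiolase that makes acetoacetyl-CoA, had 69.5, 95.8 and 81.2 CPM in siIrf1 TGFbeta libraries, 57.8 and 64.4 CPM in siCtr TGFbeta libraries, 112, 119 and 117 CPM in siIrf1 0 d libraries and 173 and 132 CPM in siCtr 0 d libraries. With TGFbeta its log2 fold change was -0.50 ± 0.16 (SE, adjusted p = 0.0494) in siIrf1 cells and -1.32 ± 0.20 (SE, adjusted p = 0.000596) in siCtr cells.

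The other mevalonate enzymes did not pass the test with TGFbeta. Hmgcs1, which adds acetyl-CoA to acetoacetyl-CoA, had 134, 88.7 and 170.5 CPM in siIrf1 TGFbeta libraries, 94.4 and 74.8 CPM in siCtr TGFbeta libraries, 189.7, 186 and 232 CPM in siIrf1 0 d libraries and 91.7 and 217 CPM in siCtr 0 d libraries. Replicate 1 of siCtr 0 d lay within the siCtr TGFbeta range and replicate 3 above it. Its log2 fold change was -0.63 ± 0.32 (SE, adjusted p = 0.208) in siIrf1 cells and -0.87 ± 0.39 (SE, adjusted p = 0.114) in siCtr cells. It was called in both with the trend removed, at -0.62 and -1.17. Mvk and Mvd, which phosphorylate and decarboxylate mevalonate intermediates, had -0.0027 and -0.18 in siIrf1 cells, and -0.94 and -0.86 in siCtr cells (adjusted p = 0.0869 and 0.0646). With the trend removed, Mvd was called in siIrf1 cells (-0.40) and in siCtr cells (-0.67), and Mvk in siCtr cells (-0.66). Idi1, the isopentenyl diphosphate isomerase, was among the lowest members, with 8.97, 6.22 and 12.7 CPM in siIrf1 TGFbeta libraries, 4.06 and 4.00 CPM in siCtr TGFbeta libraries, 15.6, 9.95 and 20.2 CPM in siIrf1 0 d libraries and 4.56 and 7.43 CPM in siCtr 0 d libraries. Its TGFbeta changes were -0.72 in siIrf1 cells and -0.58 in siCtr cells and did not pass the test, but both were called with the trend removed (-0.61 and -0.88).

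The 12 enzymes between farnesyl diphosphate and cholesterol gave 5 falls with TGFbeta in siIrf1 cells and 8 in siCtr cells. Sqle, the squalene epoxidase and a rate-limiting step, had 107, 120.1 and 162 CPM in siIrf1 TGFbeta libraries, 109.6 and 144 CPM in siCtr TGFbeta libraries, 239.7, 193 and 243 CPM in siIrf1 0 d libraries and 404 and 354 CPM in siCtr 0 d libraries. All 5 TGFbeta libraries lay below all 5 libraries at 0 d. Its log2 fold change was -0.79 ± 0.19 (SE, adjusted p = 0.0119) in siIrf1 cells and -1.58 ± 0.23 (SE, adjusted p = 0.000575) in siCtr cells, 2.99-fold lower. Cyp51, the lanosterol demethylase and the most abundant sterol gene per length, had 698, 913 and 953 CPM in siIrf1 TGFbeta libraries, 635 and 764 CPM in siCtr TGFbeta libraries, 1784, 1566 and 1919 CPM in siIrf1 0 d libraries and 2239 and 1733 CPM in siCtr 0 d libraries. TGFbeta and 0 d libraries were again apart in both backgrounds, at -1.04 ± 0.17 (SE, adjusted p = 0.00148) in siIrf1 cells and -1.51 ± 0.21 (SE, adjusted p = 0.000404) in siCtr cells. Lss, which closes the sterol rings, had 38.6, 56.1 and 46.6 CPM in siIrf1 TGFbeta libraries, 40.6 and 41.4 CPM in siCtr TGFbeta libraries, 71.1, 75.4 and 77.2 CPM in siIrf1 0 d libraries and 121 and 105 CPM in siCtr 0 d libraries. Lss changed by -0.66 ± 0.16 (SE, adjusted p = 0.0124) in siIrf1 cells and by -1.46 ± 0.20 (SE, adjusted p = 0.000323) in siCtr cells.

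Fdft1, the squalene synthase, had 39.3, 63.0 and 51.4 CPM in siIrf1 TGFbeta libraries, 40.6 and 47.9 CPM in siCtr TGFbeta libraries, 81.4, 85.7 and 88.0 CPM in siIrf1 0 d libraries and 120.4 and 86.3 CPM in siCtr 0 d libraries. With TGFbeta its log2 fold change was -0.73 ± 0.20 (SE, adjusted p = 0.0227) in siIrf1 cells and -1.22 ± 0.24 (SE, adjusted p = 0.00348) in siCtr cells. Lbr, a sterol reductase that is also the lamin B receptor of the nuclear envelope, had 66.6, 52.1 and 66.5 CPM in siIrf1 TGFbeta libraries, 38.9 and 29.8 CPM in siCtr TGFbeta libraries, 113, 101 and 109 CPM in siIrf1 0 d libraries and 50.1 and 106 CPM in siCtr 0 d libraries. Replicate 1 of siCtr 0 d was lower than replicate 3, which lay among the siIrf1 0 d libraries. Lbr changed by -0.80 ± 0.25 (SE, adjusted p = 0.0474) in siIrf1 cells and by -1.19 ± 0.31 (SE, adjusted p = 0.0157) in siCtr cells. Nsdhl, Ebp and Dhcr7, enzymes of the later sterol steps, had -0.18, -0.22 and -0.46 in siIrf1 cells and did not pass the test there. They fell in siCtr cells by 0.83, 0.76 and 0.78 on the log2 scale. Ebp (-0.29) and Dhcr7 (-0.49) were smaller and still called in siCtr cells with the trend removed, and Dhcr7 (-0.50) was then called in siIrf1 cells. Tm7sf2, another sterol reductase, Msmo1, the sterol methyl oxidase, and Sc5d, the sterol desaturase, did not pass the test with TGFbeta. Their changes were between -0.45 and -0.18 in siIrf1 cells and between -0.47 and -0.13 in siCtr cells. Tm7sf2 was at 0.14 in siCtr cells with the trend removed. Hsd17b7, a sterol ketoreductase, was the one sterol gene with a positive value in siCtr cells, 0.45 ± 0.17 (SE, adjusted p = 0.0669), and was at -0.05 with the trend removed.

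**Figure D2:**
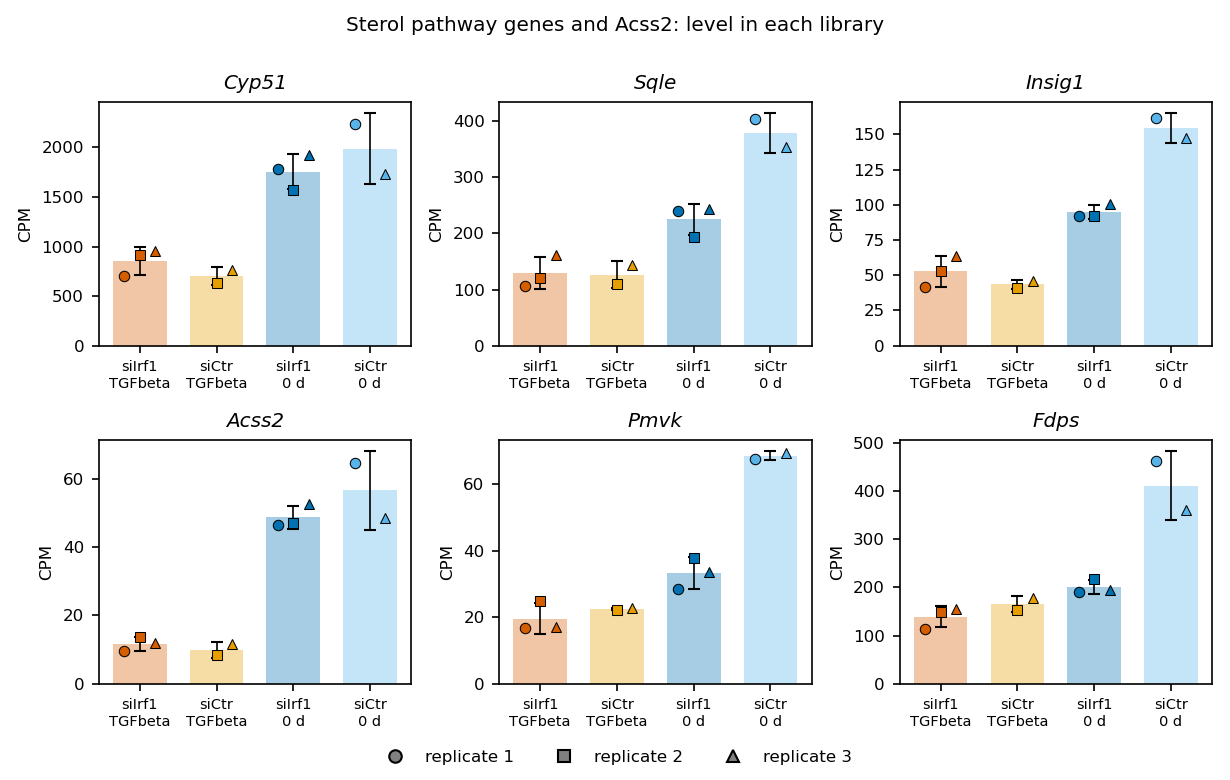
CPM of 5 sterol pathway genes and Acss2 in each library, by group; points are libraries (shape gives the replicate), bars are group means and error bars are SD (n = 3 for siIrf1 groups, n = 2 for siCtr groups). In each panel the TGFbeta libraries lie below the 0 d libraries of the same siRNA, and for Pmvk, Fdps, Sqle and Insig1 both siCtr 0 d libraries lie above every other library.

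Among the regulators, Insig1 had the clearest TGFbeta response. Insig1, itself a target of SREBP and a brake on it, had 41.5, 53.2 and 63.5 CPM in siIrf1 TGFbeta libraries, 41.2 and 45.8 CPM in siCtr TGFbeta libraries, 92.3, 91.7 and 101 CPM in siIrf1 0 d libraries and 162 and 147 CPM in siCtr 0 d libraries. The 5 TGFbeta libraries lay below all 5 libraries at 0 d. Its log2 fold change was -0.85 ± 0.16 (SE, adjusted p = 0.00405) in siIrf1 cells and -1.83 ± 0.21 (SE, adjusted p = 0.000104) in siCtr cells, 3.55-fold lower. Insig2, its relative, had -0.22 in siIrf1 cells and -0.06 in siCtr cells, neither past the test. Srebf2 had 320.1, 475 and 306 CPM in siIrf1 TGFbeta libraries, 381 and 363 CPM in siCtr TGFbeta libraries, 368, 500.2 and 370.0 CPM in siIrf1 0 d libraries and 689 and 708 CPM in siCtr 0 d libraries. It changed by -0.17 ± 0.19 (SE, adjusted p = 0.610) in siIrf1 cells and by -0.91 ± 0.24 (SE, adjusted p = 0.0145) in siCtr cells. Srebf2 was called in both with the trend removed, at -0.53 in siIrf1 cells and -1.07 in siCtr cells. Srebf1 had 88.2, 119 and 63.2 CPM in siIrf1 TGFbeta libraries, 136 and 122 CPM in siCtr TGFbeta libraries, 81.9, 117 and 73.5 CPM in siIrf1 0 d libraries and 217 and 215 CPM in siCtr 0 d libraries. With TGFbeta it was at -0.01 ± 0.24 (SE, adjusted p = 0.987) in siIrf1 cells and -0.75 ± 0.29 (SE, adjusted p = 0.0776) in siCtr cells. Srebf1, too, was called in both with the trend removed, at -0.37 in siIrf1 cells and -0.89 in siCtr cells. Scap, which carries the precursors, had 0.29 in siIrf1 cells and 0.16 in siCtr cells. Stard4, a soluble sterol carrier, had 0.01 in siIrf1 cells and -0.42 in siCtr cells. Neither of them passed the test with TGFbeta. Scap was at -0.10 in siIrf1 cells with the trend removed, and Stard4 (-0.59) was called in siCtr cells.

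Among the fatty acid genes, Acss2 had the largest TGFbeta change of all 37 genes in siIrf1 cells and in siCtr cells, and Me1 came next to it in siCtr cells. Acss2, which makes acetyl-CoA from acetate, had 9.51, 13.6 and 12.1 CPM in siIrf1 TGFbeta libraries, 8.32 and 11.6 CPM in siCtr TGFbeta libraries, 46.6, 47.1 and 52.7 CPM in siIrf1 0 d libraries and 64.7 and 48.5 CPM in siCtr 0 d libraries. All 5 TGFbeta libraries were at 8.32 to 13.6 CPM and all 5 libraries at 0 d at 46.6 to 64.7 CPM. Its log2 fold change was -2.05 ± 0.21 (SE, adjusted p = 6.02e-05) in siIrf1 cells, 4.15-fold lower, and -2.51 ± 0.26 (SE, adjusted p = 5.34e-05) in siCtr cells, 5.70-fold lower. Me1, the malic enzyme that yields NADPH, had 203, 174 and 264 CPM in siIrf1 TGFbeta libraries, 202 and 244 CPM in siCtr TGFbeta libraries, 413, 347 and 424 CPM in siIrf1 0 d libraries and 863 and 760.0 CPM in siCtr 0 d libraries. Both siCtr 0 d libraries lay above all others. With TGFbeta Me1 changed by -0.89 ± 0.17 (SE, adjusted p = 0.00439) in siIrf1 cells and by -1.87 ± 0.22 (SE, adjusted p = 0.000137) in siCtr cells. Acly, which makes acetyl-CoA from citrate, had -0.07 in siIrf1 cells and 0.10 in siCtr cells. Acaca, the acetyl-CoA carboxylase, had 0.12 in siIrf1 cells and 0.05 in siCtr cells, and Fasn, the fatty acid synthase, 0.26 in siIrf1 cells and -0.16 in siCtr cells. None of these 3 passed the test with TGFbeta. Fasn with the trend removed was at -0.22 in siIrf1 cells and was called at -0.55 in siCtr cells, and Acaca was at -0.04 and -0.18.

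Elongases and desaturases shape the chains that Fasn makes or the medium supplies. Elovl5, which extends polyunsaturated chains, had 92.5, 96.3 and 117 CPM in siIrf1 TGFbeta libraries, 94.5 and 107 CPM in siCtr TGFbeta libraries, 162, 129.8 and 151 CPM in siIrf1 0 d libraries and 209 and 169 CPM in siCtr 0 d libraries. It changed by -0.53 ± 0.15 (SE, adjusted p = 0.0310) in siIrf1 cells, not called with the trend removed (-0.42), and by -0.91 ± 0.19 (SE, adjusted p = 0.00455) in siCtr cells. Elovl6, which extends saturated chains, was the lowest member per length, with 3.07, 2.21 and 4.03 CPM in siIrf1 TGFbeta libraries, 3.54 and 3.10 CPM in siCtr TGFbeta libraries, 7.38, 9.23 and 9.76 CPM in siIrf1 0 d libraries and 2.28 and 6.37 CPM in siCtr 0 d libraries. The siIrf1 0 d libraries were all above the siIrf1 TGFbeta libraries, and replicate 1 of siCtr 0 d was below every other library but 1. Its log2 fold change was -1.51 ± 0.36 (SE, adjusted p = 0.0129) in siIrf1 cells and -0.39 ± 0.44 (SE, adjusted p = 0.520) in siCtr cells, called there with the trend removed (-0.86). Fads2, the first desaturase of polyunsaturated chains, had 193, 240.2 and 230.0 CPM in siIrf1 TGFbeta libraries, 440.4 and 489 CPM in siCtr TGFbeta libraries, 474, 489.6 and 510.3 CPM in siIrf1 0 d libraries and 838 and 809.8 CPM in siCtr 0 d libraries. Its TGFbeta change was -1.15 ± 0.13 (SE, adjusted p = 0.000111) in siIrf1 cells and -0.83 ± 0.15 (SE, adjusted p = 0.00240) in siCtr cells. The siCtr call did not hold with the trend removed (-0.46). Fads1, the next desaturase, had 319, 358 and 416 CPM in siIrf1 TGFbeta libraries, 487 and 555 CPM in siCtr TGFbeta libraries, 490.0, 511 and 515 CPM in siIrf1 0 d libraries and 887 and 750.4 CPM in siCtr 0 d libraries. It changed by -0.47 ± 0.14 (SE, adjusted p = 0.0335) in siIrf1 cells and by -0.65 ± 0.17 (SE, adjusted p = 0.0144) in siCtr cells. Acsl3, which activates fatty acids, had 101, 46.9 and 117 CPM in siIrf1 TGFbeta libraries, 86.0 and 73.1 CPM in siCtr TGFbeta libraries, 50.01, 41.9 and 59.99 CPM in siIrf1 0 d libraries and 17.6 and 54.2 CPM in siCtr 0 d libraries. It was the fatty acid gene with the highest value, 0.80 ± 0.41 (SE, adjusted p = 0.222) in siIrf1 cells and 1.15 ± 0.51 (SE, adjusted p = 0.111) in siCtr cells, and did not pass the test. Without siCtr 0 d replicate 3, which leaves replicate 1 alone in that group, Acsl3 was at 2.30 in siCtr cells. With the trend removed it was called at 0.76 in siIrf1 cells.

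Scd2, a stearoyl-CoA desaturase that makes monounsaturated fatty acids, had the most counts of any gene in 9 of 10 libraries and the second most in siIrf1 0 d replicate 1. It took 0.587 to 2.74% of the counts of a library. Per kilobase of gene length it averaged 2476 CPM over the 10 libraries, ahead of Fads2 (313), Cyp51 (303), Fads1 (153) and Fdps (149). Hsd17b7 (7.56), Idi1 (3.27) and Elovl6 (0.857) were the lowest members on that scale. Scd2 had 5810.3, 6873 and 8254 CPM in siIrf1 TGFbeta libraries, 14201 and 17283 CPM in siCtr TGFbeta libraries, 9318, 9248 and 10205 CPM in siIrf1 0 d libraries and 29593 and 24162 CPM in siCtr 0 d libraries. The 4 groups did not overlap, with siCtr 0 d highest, siCtr TGFbeta next, siIrf1 0 d after it and siIrf1 TGFbeta lowest. With TGFbeta its log2 fold change was -0.46 ± 0.16 (SE, adjusted p = 0.0702) in siIrf1 cells, called with the trend removed (-0.54), and -0.77 ± 0.20 (SE, adjusted p = 0.0135) in siCtr cells.

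Scd1, the related desaturase, had 78.3, 108 and 59.0 CPM in siIrf1 TGFbeta libraries, 184 and 191 CPM in siCtr TGFbeta libraries, 88.6, 114 and 94.0 CPM in siIrf1 0 d libraries and 258 and 343 CPM in siCtr 0 d libraries. Its counts were 0.715 to 1.58% of those of Scd2 in each library. Scd3 and Scd4, further copies of the family, were at 0.624 to 1.04% and 0.756 to 1.36% of Scd2. Reads from Scd2 assigned to its copies and transcripts of the copies cannot be told apart here, so the Scd1 values are uncertain. With TGFbeta Scd1 was at -0.27 ± 0.22 (SE, adjusted p = 0.456) in siIrf1 cells and -0.68 ± 0.27 (SE, adjusted p = 0.0775) in siCtr cells.

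**Figure D3:**
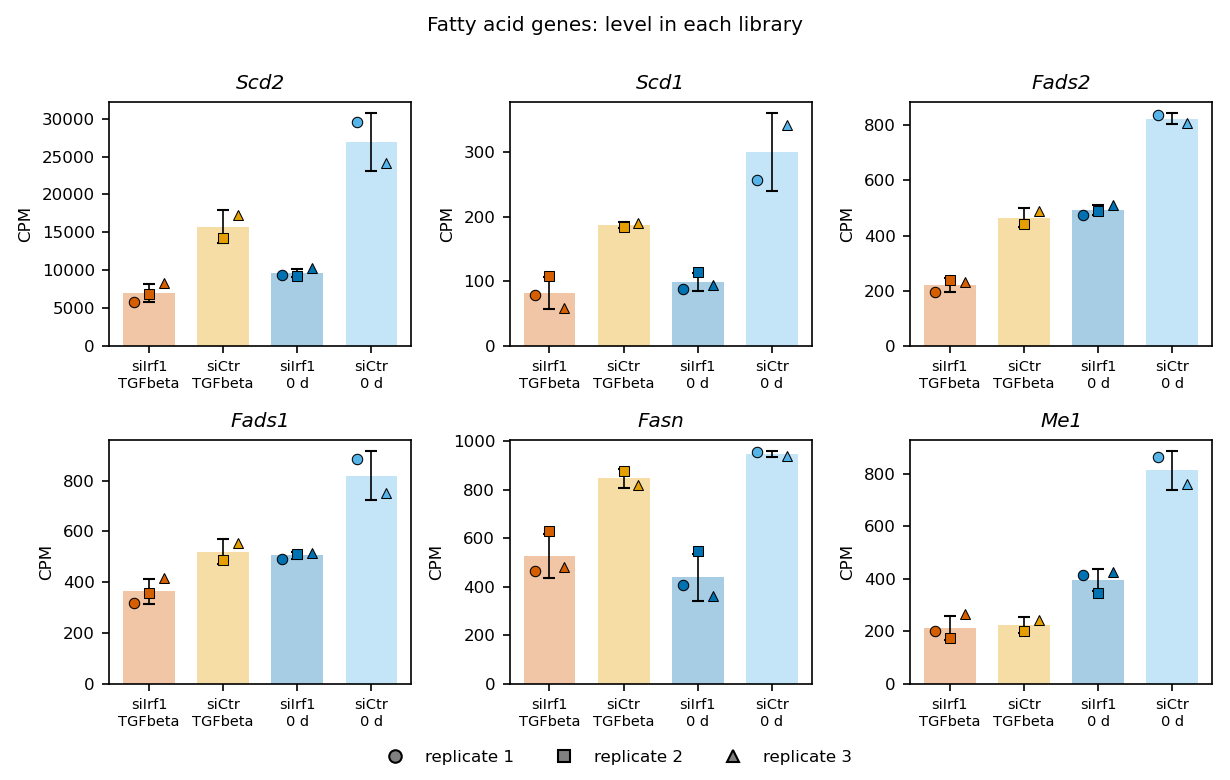
CPM of 6 fatty acid genes in each library, by group; points are libraries (shape gives the replicate), bars are group means and error bars are SD (n = 3 for siIrf1 groups, n = 2 for siCtr groups). For Scd2, Scd1, Fads2, Fads1 and Fasn every siIrf1 library lies below every siCtr library of the same treatment, and for Me1 this holds at 0 d only.

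Without TGFbeta, the desaturases, Fasn and several sterol genes were lower in siIrf1 cells. Of the 37 genes, 18 fell and 2 rose in siIrf1 against siCtr cells at 0 d, where 15.5% of all genes tested fell and 16.3% rose (31.8% in either direction). The falls were 8 of 19 sterol genes, 6 of 12 fatty acid genes and 4 of 6 regulators. Both rises were sterol genes. The medians were -0.53 for sterol and -0.53 for fatty acid genes, beside -0.03 for all genes tested. No fatty acid gene rose under edgeR, with 1 at an unadjusted p below 0.05, and DESeq2 called 1. The GC index ran 0.19 to 0.93 in siIrf1 0 d libraries and -1.37 and -0.61 in siCtr 0 d libraries, and its part in these changes was not tested beyond the removal of the trend given below. The calls on Fdps, Pmvk, Srebf1, Fasn, Me1, Scd1 and Scd2 (7 genes) were made under all 19 alternatives. Scap (-0.60) was no longer called without siIrf1 TGFbeta replicate 1. The calls on Dhcr7 (-0.56), Ebp (-0.52), Lss (-0.57), Nsdhl (-0.51) and Scap (-0.57) did not hold without siCtr TGFbeta replicate 2 or siCtr TGFbeta replicate 3. Dhcr7 (-0.56), Ebp (-0.61), Hsd17b7 (0.48), Lss (-0.56), Nsdhl (-0.59), Srebf2 (-0.68), Insig1 (-0.68), Scap (-0.57) and Idi1 (1.33) fell short of the threshold without siIrf1 0 d replicate 1. Leaving out siIrf1 0 d replicate 2 ended the calls on Ebp (-0.53), Nsdhl (-0.48) and Sqle (-0.65). Dhcr7 (-0.60), Ebp (-0.53), Hsd17b7 (0.57), Lss (-0.62), Nsdhl (-0.56), Srebf2 (-0.69), Scap (-0.54) and Idi1 (1.09) were no longer called without siIrf1 0 d replicate 3. The calls on Dhcr7 (-0.45), Ebp (-0.34), Hsd17b7 (0.56), Lss (-0.51), Nsdhl (-0.38), Sqle (-0.66), Srebf2 (-0.79), Insig1 (-0.64), Scap (-0.57), Idi1 (1.03), Tm7sf2 (-0.76) and Fads1 (-0.58) did not hold without siCtr 0 d replicate 1. Dhcr7 (-0.66), Hsd17b7 (0.61), Lss (-0.63), Nsdhl (-0.63), Srebf2 (-0.67) and Scap (-0.57) fell short of the threshold without siCtr 0 d replicate 3. Mvd (-0.53) was called without siIrf1 TGFbeta replicate 2. Against siCtr 0 d replicate 1 alone, with replicate 3 left out, the values of Hmgcs1 (1.21), Lbr (1.17), Sc5d (1.37), Stard4 (1.09), Elovl6 (2.01) and Acsl3 (1.60) were larger. Lss (-0.56), Nsdhl (-0.51), Hsd17b7 (0.59), Ebp (-0.52), Dhcr7 (-0.56) and Scap (-0.57) were no longer called with no filter on low counts. With the stricter filter, Nsdhl (-0.51) and Scap (-0.57) were no longer called. Elovl6 (1.02) was called with DESeq2. With only the groups compared in the fit, Hsd17b7 (0.56) was no longer called. Nsdhl (-0.51) was no longer called, and Mvk (-0.86), Mvd (-0.72), Insig2 (0.52) and Elovl6 (1.14) were called, with a block on replicate number. With both libraries that stood apart left out, Idi1 (1.03), Sqle (-0.66), Lss (-0.51), Nsdhl (-0.39), Hsd17b7 (0.56), Ebp (-0.34), Dhcr7 (-0.46) and Insig1 (-0.64) were no longer called, and Mvd (-0.63) was called. Tm7sf2 (-0.42) was no longer called with the block and the removal of the trend of each library with GC content and length together. The sterol count of 10 was 2 without siCtr 0 d replicate 1, 4 without siIrf1 0 d replicate 1 or 3, 6 without siCtr TGFbeta replicate 2 or 3, and 5 with no filter on low counts.

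At 0 d, Scd2 averaged 9590.4 ± 533 CPM in siIrf1 cells (SD, n = 3) and 26878 ± 3841 CPM in siCtr cells (SD, n = 2), a log2 fold change of -1.49 ± 0.18 (SE, adjusted p = 0.000621), 2.80-fold lower. Scd1, uncertain as above, had -1.60 ± 0.24 (SE, adjusted p = 0.00168). Fasn had 467, 631 and 483 CPM in siIrf1 TGFbeta libraries, 876 and 821 CPM in siCtr TGFbeta libraries, 407, 549 and 361 CPM in siIrf1 0 d libraries and 955 and 938 CPM in siCtr 0 d libraries. At 0 d the siIrf1 libraries were all below the siCtr libraries, at -1.11 ± 0.20 (SE, adjusted p = 0.00323), 2.16-fold lower. Me1 had -1.04 ± 0.19 (SE, adjusted p = 0.00379). Fads2 was at -0.75 ± 0.14 (SE, adjusted p = 0.00388) and Fads1 at -0.70 ± 0.15 (SE, adjusted p = 0.00822). With the trend removed, Fads2 (-0.18) and Fads1 (-0.24) no longer passed the test. The other fatty acid genes, Acly, Acss2, Acaca, Elovl5, Elovl6 and Acsl3, had values of -0.37 to 1.01 and did not pass. With the trend removed Acaca (-0.41) and Elovl5 (-0.82) were called lower and Acly (0.57) higher, and Acsl3 was at -0.16.

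Srebf1 fell to 90.8 ± 23.1 CPM in siIrf1 0 d libraries (SD, n = 3), against 216 ± 1.49 CPM in siCtr 0 d libraries (SD, n = 2), a log2 fold change of -1.25 ± 0.26 (SE, adjusted p = 0.00734). Srebf2 was at -0.76 ± 0.21 (SE, adjusted p = 0.0224), Insig1 at -0.70 ± 0.18 (SE, adjusted p = 0.0161) and Scap at -0.60 ± 0.20 (SE, adjusted p = 0.0443). Srebf2 (-0.25) and Scap (-0.04) did not pass with the trend removed, while Srebf1 (-0.73) and Insig1 (-0.58) did. Insig2 and Stard4 had 0.38 and 0.40 and did not pass, and Stard4 was at -0.14 with the trend removed.

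Of the mevalonate enzymes, Pmvk (-1.04 ± 0.21 (SE, adjusted p = 0.00548)) and Fdps (-1.03 ± 0.18 (SE, adjusted p = 0.00283)) fell with Irf1 siRNA at 0 d. Both were smaller and still called with the trend removed (-0.43 and -0.62). Idi1 rose, at 1.35 ± 0.39 (SE, adjusted p = 0.0265), 2.54-fold higher, and was at 0.43, no longer called, with the trend removed. Among the later enzymes, Tm7sf2 (-0.85 ± 0.20 (SE, adjusted p = 0.0106)), Sqle (-0.75 ± 0.21 (SE, adjusted p = 0.0210)), Lss (-0.60 ± 0.17 (SE, adjusted p = 0.0263)), Dhcr7, Ebp and Nsdhl fell, the last 3 by 0.59, 0.56 and 0.54. Dhcr7 (-0.08) and Ebp (-0.11) were not called with the trend removed, while Tm7sf2 (-0.42) and Nsdhl (-0.82) were. Hsd17b7 rose by 0.56 and was at -0.17 with the trend removed. Cyp51 and Acss2, both strongly lower with TGFbeta, had -0.18 and -0.21 and did not pass. Their siIrf1 0 d libraries overlapped the siCtr 0 d libraries.

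With TGFbeta present, the members that edgeR called with Irf1 siRNA were desaturases, Fasn and 1 sterol gene. Their share of the 37 genes was close to that of all genes called in either direction. Of the 37 genes, 6 fell and none rose in siIrf1 TGFbeta against siCtr TGFbeta cells, where 8.28% of all genes tested fell and 9.72% rose (18.0% in either direction). They were 5 of 12 fatty acid genes, 1 of 19 sterol genes and 0 of 6 regulators. The median was -0.20 for fatty acid genes and 0.20 for sterol genes, beside 0.05 for all genes tested. At an unadjusted p below 0.05, 4 members were higher and 7 lower, of which 1 regulator was higher and 1 lower. DESeq2 called 2 sterol genes higher and no regulator. The calls on Scd2 and Fads2 were made under all 19 alternatives. Leaving out siIrf1 TGFbeta replicate 1 ended the calls on Fasn (-0.61), Tm7sf2 (-0.66) and Fads1 (-0.43). Fads1 (-0.50) was no longer called without siIrf1 TGFbeta replicate 2. The calls on Fasn (-0.63) and Tm7sf2 (-0.57) did not hold without siIrf1 TGFbeta replicate 3. Fasn (-0.69), Scd1 (-1.27), Tm7sf2 (-0.83) and Fads1 (-0.66) fell short of the threshold without siCtr TGFbeta replicate 2. Leaving out siCtr TGFbeta replicate 3 ended the calls on Fasn (-0.77), Scd1 (-1.21), Tm7sf2 (-0.64) and Fads1 (-0.46). Fasn (-0.69), Tm7sf2 (-0.69) and Fads1 (-0.51) were no longer called without siIrf1 0 d replicate 1. The call on Fads1 (-0.52) did not hold without siIrf1 0 d replicate 2. Tm7sf2 (-0.69) and Fads1 (-0.51) fell short of the threshold without siIrf1 0 d replicate 3. Idi1 (1.43), Srebf1 (-0.77), Scap (-0.67) and Stard4 (1.05) were called without siIrf1 TGFbeta replicate 2. Idi1 (1.20) was called without siIrf1 0 d replicate 2. Idi1 (1.15) and Lbr (0.79) were called without siCtr 0 d replicate 1 or without siCtr 0 d replicate 3. Idi1 (1.19) and Lbr (0.83) were called with DESeq2. With only the groups compared in the fit, Tm7sf2 (-0.69) and Fads1 (-0.52) were no longer called. Tm7sf2 (-0.70) and Fads1 (-0.50) were no longer called, and Idi1 (1.11) was called, with a block on replicate number. With both libraries that stood apart left out, Hmgcs1 (0.78), Pmvk (-0.48), Idi1 (1.37), Lbr (0.89), Srebf1 (-0.84), Scap (-0.74) and Stard4 (0.99) were called. Srebf2 (0.32) and Stard4 (0.56) were called with the block and the removal of the trend of each library with GC content and length together. The sterol count was 0 in a fit of these 2 groups alone, 3 under DESeq2, 4 with the trend removed and 5 without both libraries that stood apart. Its values without 1 library ran from 0 to 3.

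Scd2 averaged 6979 ± 1225 CPM in siIrf1 TGFbeta libraries (SD, n = 3) and 15742 ± 2179 CPM in siCtr TGFbeta libraries (SD, n = 2), a log2 fold change of -1.17 ± 0.18 (SE, adjusted p = 0.00193), 2.26-fold lower. Fads2 had -1.07 ± 0.14 (SE, adjusted p = 0.00082), 2.10-fold lower. Scd1 was at -1.19 ± 0.24 (SE, adjusted p = 0.00838), Fasn at -0.69 ± 0.20 (SE, adjusted p = 0.0365) and Fads1 at -0.52 ± 0.15 (SE, adjusted p = 0.0411). Fads1 (-0.32) was not called with the trend removed, and Fasn (-0.46) was. Tm7sf2 had 12.2, 15.2 and 10.4 CPM in siIrf1 TGFbeta libraries, 19.1 and 21.6 CPM in siCtr TGFbeta libraries, 14.0, 13.9 and 14.9 CPM in siIrf1 0 d libraries and 27.6 and 23.9 CPM in siCtr 0 d libraries. Each siIrf1 group lay below the siCtr group of the same treatment, at -0.69 ± 0.20 (SE, adjusted p = 0.0359) with TGFbeta. Idi1 (1.20 ± 0.39 (SE, adjusted p = 0.0590)) and Lbr (0.84 ± 0.29 (SE, adjusted p = 0.0709)) were higher in every siIrf1 TGFbeta library than in the siCtr TGFbeta libraries and did not pass the test. With the trend removed Idi1 (0.70), Lbr (0.62) and Acat2 (0.51) were called higher.

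Sterol and fatty acid genes were also set side by side as mean levels in each library, on a log2 scale relative to each gene's mean over the 10 libraries. The sterol mean was -0.40, -0.19 and -0.19 in siIrf1 TGFbeta libraries, -0.44 and -0.41 in siCtr TGFbeta libraries, 0.24, 0.19 and 0.30 in siIrf1 0 d libraries and 0.40 and 0.51 in siCtr 0 d libraries. The fatty acid mean was -0.53, -0.46 and -0.31 in siIrf1 TGFbeta libraries, -0.09 and 0.03 in siCtr TGFbeta libraries, 0.05, 0.08 and 0.13 in siIrf1 0 d libraries and 0.48 and 0.63 in siCtr 0 d libraries. The sterol mean was highest in siCtr 0 d, and TGFbeta and 0 d libraries did not overlap on it. The sterol mean minus the fatty acid mean was 0.11 to 0.27 in the 6 siIrf1 libraries and -0.44 to -0.08 in the 4 siCtr libraries. These means describe the chosen genes and were not tested.

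**Figure D4:**
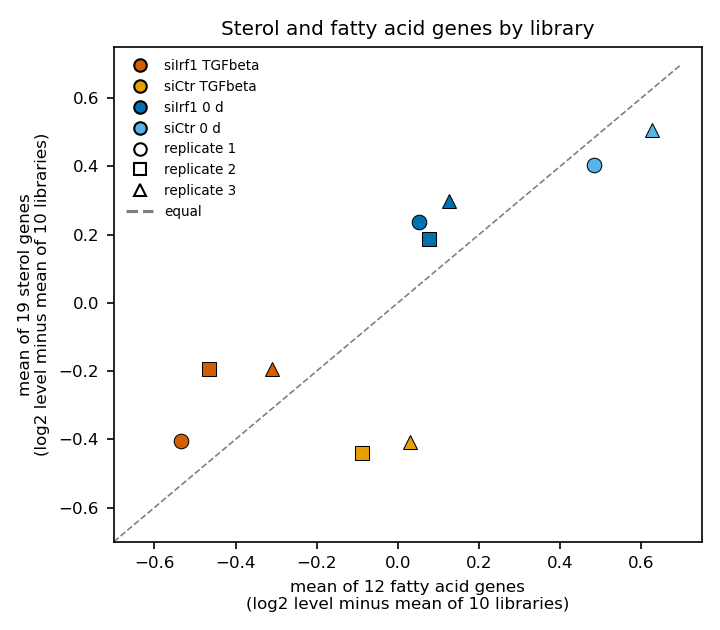
Mean of the 19 sterol genes (vertical axis) against the mean of the 12 fatty acid genes (horizontal axis) in each library, both as log2 CPM minus the gene's mean over 10 libraries; colour gives the group, shape the replicate, and the dashed line equal values. All 6 siIrf1 libraries lie above the line and all 4 siCtr libraries below it.

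Whether the TGFbeta response differed between siIrf1 and siCtr cells was tested with the interaction term. No member passed under edgeR, where 4.12% of all genes tested did (2.8% higher and 1.32% lower), with 10 members higher and 1 lower at an unadjusted p below 0.05. DESeq2 called 4 higher (Acat2, Lss, Insig1 and Me1) and 0 lower. The value was positive for 29 of 37 genes, meaning a less negative or more positive TGFbeta change in siIrf1 cells, with medians of 0.49 for sterol genes, 0.25 for fatty acid genes and 0.03 for all genes tested. The lowest adjusted p-values were those of Insig1 (0.98 ± 0.26 (SE, adjusted p = 0.0694)) and Me1 (0.98 ± 0.27 (SE, adjusted p = 0.0844)). Insig1 was called without siIrf1 TGFbeta replicate 1 (1.13) and Me1 without siIrf1 TGFbeta replicate 2 (1.11). Elovl6 was at -2.17 without siCtr 0 d replicate 3, which leaves replicate 1 alone in that group. With the trend removed, Acat2 (0.58), Insig1 (0.88), Srebf2 (0.54) and Me1 (1.28) were called, and with the block added also Fads2 (-0.71). The term uses the siCtr 0 d libraries on which several of the falls above rest.

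GC content went along with the siRNA values at 0 d. Of the 10 members in the lowest GC quartile of genes tested, 9 were higher in siIrf1 0 d than in siCtr 0 d cells (median 0.48), beside a median of 1.0002 for all genes of that quartile. The 20 members of the middle quartiles had 2 positive values (median -0.59, all such genes -0.09), and the 7 members of the highest quartile none (median -0.76, all such genes -0.40). With the trend of each library with GC content and gene length removed, the medians were -0.15, -0.41 and -0.25 in the same order of quartiles, and the median of all genes tested moved to 0.14. The sterol count at 0 d was then 6, all falls, and the fatty acid count was 7, 6 falls and a rise. With TGFbeta in siCtr cells, 15 of 19 sterol genes fell with the trend removed. Of the calls on the 37 members, 13 of 15 with TGFbeta in siIrf1 cells, 18 of 19 with TGFbeta in siCtr cells, 5 of 6 with Irf1 siRNA under TGFbeta and 12 of 20 at 0 d were also made with the trend removed, where 8, 8, 3 and 3 further members were called. The value took the other sign in 3, 3, 8 and 9 members in the same order, of which only Hsd17b7 at 0 d had been called.

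**Figure D5:**
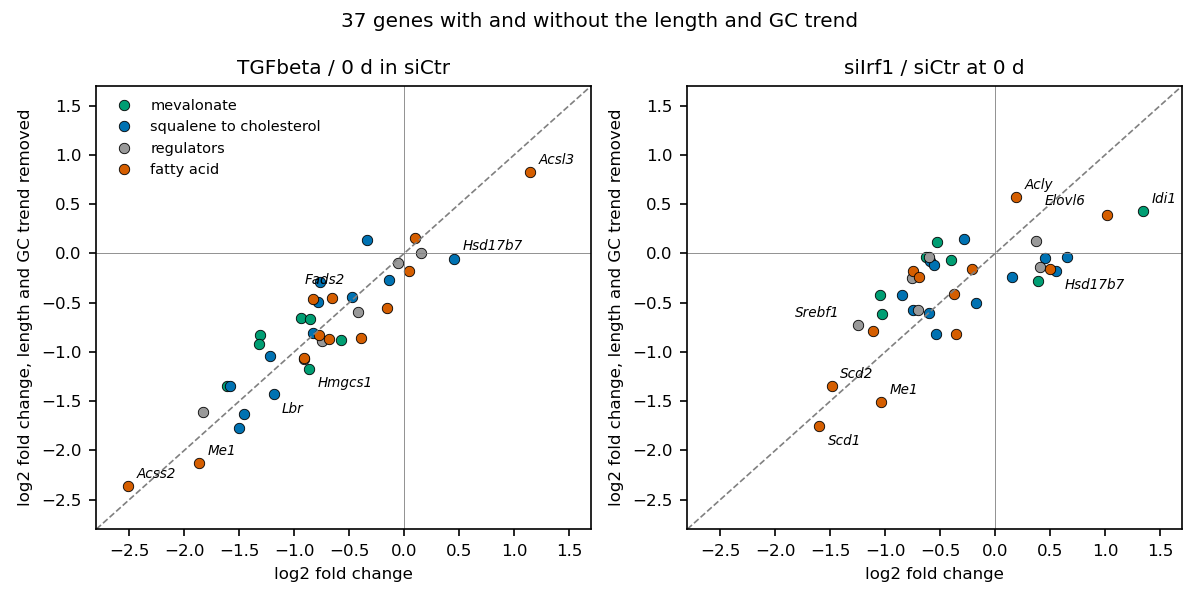
Log2 fold change of the 37 genes with the length and GC trend of each library removed (vertical axis) against the value without that step (horizontal axis), for TGFbeta over 0 d in siCtr cells (left) and siIrf1 over siCtr at 0 d (right); colour gives the role and the dashed line equal values. On the left, the values moved by a median of 0.22 and at most 0.51, with Hsd17b7 at -0.05 against 0.45 and Tm7sf2 at 0.14 against -0.34; on the right they moved by a median of 0.45 and at most 0.91, 7 of 11 positive values became negative, and Scd1, Scd2 and Me1 stayed below -1.

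Neighbouring lipid pathways were counted as lists of genes that are not members. The counts stand beside the shares of all genes tested, of which 11.6% rose and 9.71% fell with TGFbeta in siIrf1 cells, 16.1% rose and 16.3% fell with TGFbeta in siCtr cells, 9.72% rose and 8.28% fell with Irf1 siRNA under TGFbeta and 16.3% rose and 15.5% fell with Irf1 siRNA at 0 d. These lists hold 8 to 18 genes, and whether their counts differ from such shares was not tested. Of 18 further sterol and fatty acid synthesis genes tested, 1 rose and 3 fell with TGFbeta in siIrf1 cells, 1 rose and 5 fell with TGFbeta in siCtr cells, 1 rose and 2 fell with Irf1 siRNA under TGFbeta and 2 rose and 7 fell with Irf1 siRNA at 0 d. Tmem97, a sterol-regulated membrane protein, fell with TGFbeta by 1.003 in siIrf1 cells and by 1.54 in siCtr cells. Acsl5, an acyl-CoA synthetase, fell by 0.97 in siIrf1 cells and by 1.28 in siCtr cells. Acacb, the mitochondrial acetyl-CoA carboxylase, was at 1.71 ± 0.581 CPM in siCtr TGFbeta libraries and 0.363 CPM on average in siCtr 0 d libraries, a rise of 2.25, and fell with Irf1 siRNA under TGFbeta (-1.84). Mid1ip1, an activator of acetyl-CoA carboxylase, rose with Irf1 siRNA under TGFbeta at 1.45 ± 0.24 (SE, adjusted p = 0.00359). Acsl1 (-0.98) fell with Irf1 siRNA at 0 d, and Acsl4, another acyl-CoA synthetase, rose there (1.33) and fell with TGFbeta in siIrf1 cells (-1.11). At 0 d Acsl4 was at -0.13 and Acsl1 at -1.53 with the trend removed.

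Of 11 glycerolipid synthesis genes tested, 2 rose and 3 fell with TGFbeta in siIrf1 cells, 0 rose and 6 fell with TGFbeta in siCtr cells, 2 rose and 0 fell with Irf1 siRNA under TGFbeta and 1 rose and 4 fell with Irf1 siRNA at 0 d. Chka, the choline kinase, had -1.39 ± 0.17 (SE, adjusted p = 0.000259) with TGFbeta in siIrf1 cells and -1.98 ± 0.22 (SE, adjusted p = 8.53e-05) in siCtr cells. Chpt1, which completes phosphatidylcholine, had -1.47 ± 0.20 (SE, adjusted p = 0.000514) in siIrf1 cells and -1.95 ± 0.25 (SE, adjusted p = 0.000265) in siCtr cells, and with Irf1 siRNA 1.22 under TGFbeta and 0.74 at 0 d. Chpt1 with the trend removed was at 0.32 and not called under TGFbeta, and called lower at 0 d (-0.87). Agpat2, an acyltransferase, had -1.32 with TGFbeta in siCtr cells and 0.59 with Irf1 siRNA under TGFbeta. Gpam, which starts glycerolipid synthesis, had -0.73 with TGFbeta in siIrf1 cells. Pcyt2 (-0.96) and Lpin2 (-0.62) fell with Irf1 siRNA at 0 d, and Pcyt2 was not called with the trend removed (-0.31).

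Of 15 fatty acid oxidation genes tested, 0 rose and 0 fell with TGFbeta in siIrf1 cells, 0 rose and 4 fell with TGFbeta in siCtr cells, 1 rose and 0 fell with Irf1 siRNA under TGFbeta and 1 rose and 4 fell with Irf1 siRNA at 0 d. Hadh (-1.10), Cpt1a (-0.89) and Cpt2 (-0.80) fell with TGFbeta in siCtr cells, and with the trend removed Hadh (-0.64) and Cpt2 (-0.43) were smaller and still called. Cpt1a, the gate of mitochondrial fatty acid uptake, had -1.30 ± 0.15 (SE, adjusted p = 0.000513) with Irf1 siRNA at 0 d, and Acadvl -0.73, not called with the trend removed (-0.16). Acaa2, a mitochondrial thiolase, rose with Irf1 siRNA by 0.93 under TGFbeta and by 0.74 at 0 d (1.26 with the trend removed).

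Of 8 genes of sterol efflux, esterification and lysosomal transport tested, 1 rose and 1 fell with TGFbeta in siIrf1 cells, 0 rose and 2 fell with TGFbeta in siCtr cells, 0 rose and 2 fell with Irf1 siRNA under TGFbeta and 0 rose and 4 fell with Irf1 siRNA at 0 d. Scarb1, the HDL receptor, had -1.47 ± 0.17 (SE, adjusted p = 0.000554) with Irf1 siRNA under TGFbeta and -0.99 ± 0.17 (SE, adjusted p = 0.00305) at 0 d. Npc1, which exports cholesterol from lysosomes, had -0.94 under TGFbeta and -1.25 at 0 d with Irf1 siRNA, and 0.76 with TGFbeta in siIrf1 cells. Nr1h3, the sterol receptor LXR alpha, had -1.06 with TGFbeta in siCtr cells and -0.75 with Irf1 siRNA at 0 d, the second not called with the trend removed (-0.11). Lpcat3, its target, had -1.07 with TGFbeta in siCtr cells, and Soat1, which esterifies cholesterol, -1.003 in siIrf1 cells. Of 10 genes of isoprenoid side branches, 0 rose and 2 fell with TGFbeta in siIrf1 cells, 1 rose and 2 fell with TGFbeta in siCtr cells, 0 rose and 1 fell with Irf1 siRNA under TGFbeta and 1 rose and 3 fell with Irf1 siRNA at 0 d. Dhdds, of dolichol synthesis, had -0.79 under TGFbeta and -1.14 at 0 d (-0.67 with the trend removed) with Irf1 siRNA. Fnta, a subunit of farnesyltransferase, had -0.80 with TGFbeta in siIrf1 cells and -1.17 in siCtr cells. Ggps1 (1.41) rose and Coq2 (-0.59) fell with TGFbeta in siCtr cells, Rabggtb (-0.46) fell with it in siIrf1 cells, and with Irf1 siRNA at 0 d Pggt1b (1.65) rose and Pdss2 (-0.83) fell. Coq2 (-0.22) and Rabggtb (-0.23) were no longer called with the trend removed, and Pggt1b was at 0.71.

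With TGFbeta in siIrf1 cells, several calls on these list genes rested on single libraries. Leaving out siIrf1 TGFbeta replicate 1 ended the calls on Npc1 (0.82), Fnta (-0.78) and Rabggtb (-0.41). Npc1 (0.48) was no longer called without siIrf1 TGFbeta replicate 3. The calls on Npc1 (0.77) and Rabggtb (-0.45) did not hold without siCtr TGFbeta replicate 2 or siCtr TGFbeta replicate 3. Npc1 (0.85), Fnta (-0.73) and Rabggtb (-0.44) fell short of the threshold without siIrf1 0 d replicate 1. Leaving out siIrf1 0 d replicate 2 ended the call on Npc1 (0.76). Npc1 (0.69), Fnta (-0.74), Rabggtb (-0.42) and Acsl4 (-0.97) were no longer called without siIrf1 0 d replicate 3. Rabggtb (-0.45) was no longer called with no filter on low counts. With only the groups compared in the fit, Npc1 (0.77) and Rabggtb (-0.45) were no longer called. Npc1 (0.74) was no longer called with a block on replicate number. Npc1 (0.69) was no longer called with the block and the removal of the trend of each library with GC content and length together. The calls with TGFbeta in siCtr cells did so as well. The calls on Nr1h3 (-0.94), Fnta (-0.83), Coq2 (-0.45), Ggps1 (1.30), Cpt1a (-0.72) and Cpt2 (-0.55) did not hold without siCtr TGFbeta replicate 2. Nr1h3 (-1.02), Coq2 (-0.57), Ggps1 (1.62) and Cpt2 (-0.89) fell short of the threshold without siCtr TGFbeta replicate 3. Leaving out siIrf1 0 d replicate 1 or siIrf1 0 d replicate 3 ended the calls on Coq2 (-0.59) and Ggps1 (1.41). Ggps1 (1.41) was no longer called without siIrf1 0 d replicate 2. The calls on Nr1h3 (-0.99), Fnta (-0.82), Coq2 (-0.38), Ggps1 (0.93) and Cpt2 (-0.55) did not hold without siCtr 0 d replicate 1. With no filter on low counts, Coq2 (-0.51) was no longer called. Coq2 (-0.49) was no longer called with the stricter filter. With only the groups compared in the fit, Coq2 (-0.60), Ggps1 (1.41) and Cpt2 (-0.80) were no longer called. Coq2 (-0.55) and Ggps1 (1.56) were no longer called with a block on replicate number. With both libraries that stood apart left out, Coq2 (-0.38) and Cpt2 (-0.55) were no longer called. With Irf1 siRNA under TGFbeta the following calls changed. Npc1 (-0.89) and Agpat2 (0.56) fell short of the threshold without siIrf1 TGFbeta replicate 1. Leaving out siIrf1 TGFbeta replicate 2 ended the call on Agpat2 (0.48). Npc1 (-1.09), Dhdds (-0.87), Acacb (-1.48), Chpt1 (1.02), Agpat2 (0.51) and Acaa2 (0.78) were no longer called without siCtr TGFbeta replicate 2. The calls on Npc1 (-0.87), Dhdds (-0.80), Mid1ip1 (1.34), Agpat2 (0.57) and Acaa2 (1.00) did not hold without siCtr TGFbeta replicate 3. Agpat2 (0.59) fell short of the threshold without siIrf1 0 d replicate 1 or siIrf1 0 d replicate 2 or siIrf1 0 d replicate 3. Leaving out siCtr 0 d replicate 1 or siCtr 0 d replicate 3 ended the call on Agpat2 (0.54). Agpat2 (0.54) was no longer called with no filter on low counts. With the stricter filter, Agpat2 (0.53) was no longer called. Npc1 (-0.94) and Agpat2 (0.59) were no longer called with only the groups compared in the fit. With a block on replicate number, Agpat2 (0.57) was no longer called. Agpat2 (0.41) was no longer called with both libraries that stood apart left out. With Irf1 siRNA at 0 d the list was longer for replicate 1 of siCtr 0 d than for any other library. Nr1h3 (-0.72) was no longer called without siCtr TGFbeta replicate 2 or siCtr TGFbeta replicate 3. The calls on Nr1h3 (-0.70) and Chpt1 (0.67) did not hold without siIrf1 0 d replicate 1. Nr1h3 (-0.75) fell short of the threshold without siIrf1 0 d replicate 2. Leaving out siIrf1 0 d replicate 3 ended the calls on Nr1h3 (-0.79) and Chpt1 (0.60). Nr1h3 (-0.72), Pggt1b (1.28), Pdss2 (-0.76), Acsl4 (0.96), Pcyt2 (-0.97), Chpt1 (0.81), Acadvl (-0.55) and Acaa2 (0.83) were no longer called without siCtr 0 d replicate 1. The calls on Nr1h3 (-0.72), Lpin2 (-0.46) and Chpt1 (0.74) did not hold without siCtr 0 d replicate 3. With no filter on low counts, Nr1h3 (-0.72) was no longer called. Chpt1 (0.74) was no longer called with only the groups compared in the fit. With both libraries that stood apart left out, Pdss2 (-0.76) and Chpt1 (0.81) were no longer called. Pggt1b (0.67) was no longer called with the block and the removal of the trend of each library with GC content and length together.

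Libraries were made with a stranded kit, but whether reads were counted by strand is not given in the sources used here. In the annotation, exons of Acss2 overlap Gss by 395 bases, Acss2os by 335 and Ggt7 by 197 on the opposite strand, Fdft1 overlaps Ctsb by 774, Lbr overlaps Dnah14 by 440, Hmgcs1 overlaps Gm48342 by 557, Scap overlaps 5830462I19Rik by 985, Lss overlaps 4930483K19Rik by 381 and Cyp51 overlaps Akap9 by 166. Idi1 overlaps Gm48574 by 323 bases, also on the opposite strand. On the same strand, Fdps overlaps Gm43738 by 1124 bases, Tm7sf2 overlaps Vps51 by 532 and Acsl3 overlaps Utp14b by 244. Shorter overlaps, of 109 bases at most, are not listed. The values of these members could include or lose reads of their neighbours.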

How the data were processed

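RNA of 10 libraries was sequenced on an Illumina HiSeq after a stranded TruSeq preparation, per the labels' protocols. The deposited table gives whole-number read counts per gene, with no normalization, and a gene length, for 24454 Entrez identifiers. Reads were aligned with STAR to mm10 (GRCm38), per the submitters' processing notes, and neither the STAR version nor the counting tool and its use of strand is given in the sources used here. RefSeq symbols were found for 24374 identifiers, and the 80 without a symbol held 0.215 to 1.50% of a library's counts. Libraries held 27547649 to 67301646 counts, and pairs of replicates differed beyond counting noise, at a chi-square of 25.4 to 321 for each degree of freedom. Each library was treated as 1 sample. Technical differences could also give such values, so they do not show that the libraries came from separate cultures.

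The deposited counts were tested with the quasi-likelihood F test (robust) of edgeR 4.0.16 in R 4.3.3, after TMM scaling and filterByExpr. All libraries entered 1 model with 4 group terms, and 13135 genes were tested with 6 residual degrees of freedom and a median prior of 4.15. Adjusted p is by Benjamini-Hochberg over all genes tested in a comparison, at a threshold of 0.05. The procedure was also run on simulated counts, which held no GC trend and no library that stood apart. That run does not test how these features affect the calls. SE was taken as the size of the log2 fold change over the root of the F statistic. CPM values are TMM-scaled, library means used log2(CPM + 0.5), and levels between genes were compared per kilobase of the deposited gene length.

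The members and lists were chosen with earlier results of these data known. All 37 members are named, and per pathway list up to 3 called genes with the smallest adjusted p in each pairwise comparison, except 1 gene of these lists that is counted but not reported here. The comparisons share groups: each group enters 2 of the 4 pairwise comparisons and the interaction, so that results with a common group are not independent. Alternatives were RLE size factors, DESeq2 1.42.0, no filter, a filter of 2 CPM in 3 libraries, only the groups compared, a block on replicate number, removal of each library's trend with GC content (known for 95.0% of genes tested) and gene length, that removal with the block, leaving out each library, and leaving out both libraries that stood apart. Leaving out a siCtr library, or both that stood apart, left 1 library in a siCtr group, whose own spread is then unknown. Same-numbered libraries deviated together in 8 of 12 pairs (correlation over 0.1, range -0.39 to 0.45). Every such pair was over 0.1 between siIrf1 0 d and siIrf1 TGFbeta (3 of 3 pairs, 0.14 to 0.45). The same held between siCtr 0 d and siIrf1 0 d (0.12 and 0.33) and between siIrf1 0 d and siCtr TGFbeta (0.22 and 0.105). Pairs with different numbers reached 0.53 (siCtr 0 d replicate 1 with siIrf1 TGFbeta replicate 2). These values do not settle whether the numbers pair the groups, and any pairing would come from the data and not the labels.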

Additional observations from a re-analysis of the deposited data

Results flagged for a closer look

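None of the 37 members was flagged, and no group had enough libraries for a test of outlying samples. Of the neighbouring list genes, 2 had TGFbeta responses that differed between siIrf1 and siCtr cells by the interaction test (edgeR, adjusted over all genes tested). They were 1 of 18 further sterol and fatty acid synthesis genes and 1 of 15 fatty acid oxidation genes. Of all genes tested, 4.12% passed, and whether the lists differ from that share was not tested. Acsl1, an acyl-CoA synthetase, had an interaction of 1.09 ± 0.22 (SE, adjusted p = 0.0236), which was no longer called without siCtr TGFbeta replicate 2 (0.93) or 3 (1.08), siIrf1 0 d replicate 1 (1.07) or 3 (1.11), or siCtr 0 d replicate 1 (0.93), with no filter on low counts (1.01), or without both libraries that stood apart (0.93). Cpt1a, of mitochondrial fatty acid uptake, had 1.20 ± 0.21 (SE, adjusted p = 0.0122), no longer called without siCtr TGFbeta replicate 2 (1.04) or 3 (1.20) or siCtr 0 d replicate 1 (0.98).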

How the results depend on the processing

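Over 19 alternatives, 121 gene values were followed, 110 of them called, and 1909 of 2297 resulting values kept their direction and side of the threshold, 330 lost a call, 49 gained one and 9 changed sign, and 218 of 285 counts stayed within 1.5 times. For sterol genes, the count with TGFbeta in siIrf1 cells (8) was 5 with the stricter filter. The sterol count with Irf1 siRNA at 0 d (10) was 5 with no filter, 6 with the trend removed, 5 with the trend removed and the block, and 4 without both libraries that stood apart. With Irf1 siRNA under TGFbeta (1) it was 3 with DESeq2, 0 with the compared groups alone, 4 with the trend removed with or without the block, and 5 without both libraries. For the interaction (0), sterol calls were 2 with DESeq2 and 1 with the trend removed with or without the block, and fatty acid calls 1 with DESeq2, 1 with the trend removed and 2 with the block added. Among all genes, the interaction count (541) was 1171 with DESeq2 and 1153 with the trend removed, TGFbeta in siIrf1 cells (2799) gave 4213 with the trend removed and 4873 without both libraries, and Irf1 siRNA under TGFbeta (2365) gave 4897 without both. Leaving out 1 library gave sterol counts of 1 to 9 for TGFbeta in siIrf1 cells, 6 to 14 for TGFbeta in siCtr cells, 0 to 3 for Irf1 siRNA under TGFbeta and 2 to 11 at 0 d. Fatty acid counts were 2 to 7 for TGFbeta in siCtr cells, 2 to 5 for Irf1 siRNA under TGFbeta and 0 to 1 for the interaction. Counts of all genes were 2297 to 5159, 762 to 2978, 1700 to 5192 and 122 to 1590 for TGFbeta in siCtr cells, Irf1 siRNA under TGFbeta, Irf1 siRNA at 0 d and the interaction. Of the values followed, those that changed sign were Hsd17b7 with TGFbeta in siCtr cells (-0.052 with the trend removed, -0.051 with the block added), Hmgcs1 there, from -1.32 without siCtr 0 d replicate 1 to 0.0034 without its replicate 3, and, with Irf1 siRNA at 0 d, Hsd17b7 (-0.17, and -0.22 with the block), Acsl4 (-0.13 and -0.15) and Chpt1 (-0.87 and -0.85) with the trend removed. Over all 185 member values, 28 had the other sign with the trend removed, 1 of them called. The cause was not tested.

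In the fit with the block on replicate number alone, the trend not removed, the sterol count with TGFbeta in siIrf1 cells was 5. No other count of sterol or fatty acid calls moved by over 1.5 times in that fit. Libraries of different groups share a number and a tag in their titles (e2, e3 or e4, in step with the number), which the labels do not explain. Groups of 2 and 3 libraries limit all calls, and low members (Idi1 and Elovl6) rest on the fewest counts.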
